A study of Mus musculus with 6 samples.

Results

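Cells make cholesterol from acetyl-CoA by the mevalonate route, which leads to squalene, and by a series of later steps that close and trim the sterol ring. The transcription factor SREBP-2, encoded by *Srebf2*, drives the genes of both stretches when sterols in the endoplasmic reticulum are low, SCAP escorts it to the Golgi for cleavage, and the INSIG proteins hold it back when sterols are plentiful. The liver X receptors (LXR) respond to oxysterols and raise genes that export cholesterol. Here, 32 genes of these processes were examined in E18.5 hearts of WT and *Pkm1*-KO mouse embryos, and 31 of them were present among the 13809 gene symbols of the deposited count table. The expression of *Hmgcs1* was not analysed here. The genes were chosen by symbol for their role in the pathway and, as the only measured value, selected on presence in the table, in which every gene had at least 59 counts over the 6 libraries. Because the list was drawn up with the KO and WT results known, the counts of genes below are descriptions. All 31 genes passed edgeR's filter on low counts, with 29 counts (*Nr1h3*) to 3106 counts (*Srebf2*) per library.

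Ribosomal RNA-depleted total RNA was sequenced from 3 WT and 3 KO libraries. The labels give the tissue as heart and the genotypes as wildtype and pkm1-knockout at embryonic day 18.5, and the study describes ventricular tissue of homozygous embryos that carry a small germline deletion in the *Pkm1*-specific exon of *Pkm*, made with CRISPR/Cas9 in zygotes of BDF1 hybrid mice (C57BL/6J by DBA/2) and present in all tissues. The columns carry the genotype without a replicate number, so the libraries of each genotype are called a, b and c in column order. Whether embryos were pooled, and their sex, are not given in the sources used here.

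Total counts were 15567624 to 19875546 per library, and values are counts scaled to TMM-adjusted library size (CPM). *Pkm*, the targeted gene, was at 1294, 1296 and 1366 CPM in WT and at 547, 530 and 549 CPM in KO libraries, and counts per gene do not separate its *Pkm1* and *Pkm2* transcripts. All 8 cardiomyocyte markers were present, of which 4 were lower and 2 higher in KO hearts, *Myh6* at a log2 fold change of -0.46, and their summed level was 123427 to 126790 CPM in WT and 117383 to 118855 CPM in KO libraries, most of it *Ttn*. Mean *Xist* levels were 5.26 CPM over WT and 2285 CPM over KO libraries (n = 3 each). *Ddx3y*, *Uty*, *Eif2s3y* and *Kdm5d*, on the Y chromosome, had WT means of 93.5, 53.3, 52.4 and 39.1 CPM and 0 counts in every KO library. These genes mark the WT libraries as male and the KO libraries as female, so sex and genotype cannot be told apart for any gene below. Other cell markers also moved. Of 5 tested atrial markers 3, *Nppa*, *Myl4* and *Myl7*, were higher in KO hearts, and *Nr2f1* and *Nr2f2* did not pass the test. The summed level of the 5 was 586 to 594 CPM in WT and 999 to 1022 CPM in KO libraries, most of it *Nppa* and *Myl4*. Of 6 epicardial markers 4 were higher (77.5 to 82.5 CPM in WT, 96.6 to 102.5 CPM in KO libraries). The 3 tested liver markers, *Alb*, *Afp* and *Apoa1*, were lower (23.0 to 28.8 and 9.93 to 10.7 CPM). Of 7 endothelial markers 3 were lower and 1 was higher (1210 to 1217 and 1160 to 1176 CPM), 3 of 7 fibroblast markers were lower (3238 to 3286 and 3112 to 3183 CPM), and of 3 tested erythroid markers 1 was lower and 1 higher (33.5 to 35.5 and 35.8 to 43.0 CPM). The part of these shifts in the sterol gene results was not tested. In tissue RNA, fewer cells of a type and less RNA per cell cannot be told apart.

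Most genes that make cholesterol were lower in KO hearts. *Soat1*, *Abca1* and *Abcg1*, which store or export it, were higher, and *Abca1* lost its call in 5 of 14 alternative fits. With 0.05 as the limit for the adjusted p (edgeR's quasi-likelihood test, Benjamini-Hochberg adjustment across the whole set of 13804 tested genes), 17 of the 31 genes fell and 4 rose. Over all genes tested, 15.7% were lower and 14.6% were higher by the same rule, so the 4 that rose were no larger a share than among all genes. The WT and KO libraries did not overlap for 17 genes that were lower and 4 that were higher in KO hearts, whereas the background of such genes was 21.4% lower and 21.0% higher. These 17 are not all the same genes, as *Npc2* passed the test with overlapping groups and *Nr1h2* did not pass it without overlap. The median log2 fold change was -0.28 over the 31 genes and 0.00172 over all genes tested. By role, the median was -0.58 for 7 mevalonate steps, -0.49 for 10 post-squalene steps, -0.025 for 5 genes of SREBP control, -0.10 for 4 genes of sterol transport and esterification and 0.14 for 5 LXR and efflux genes.

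**Figure D1:**
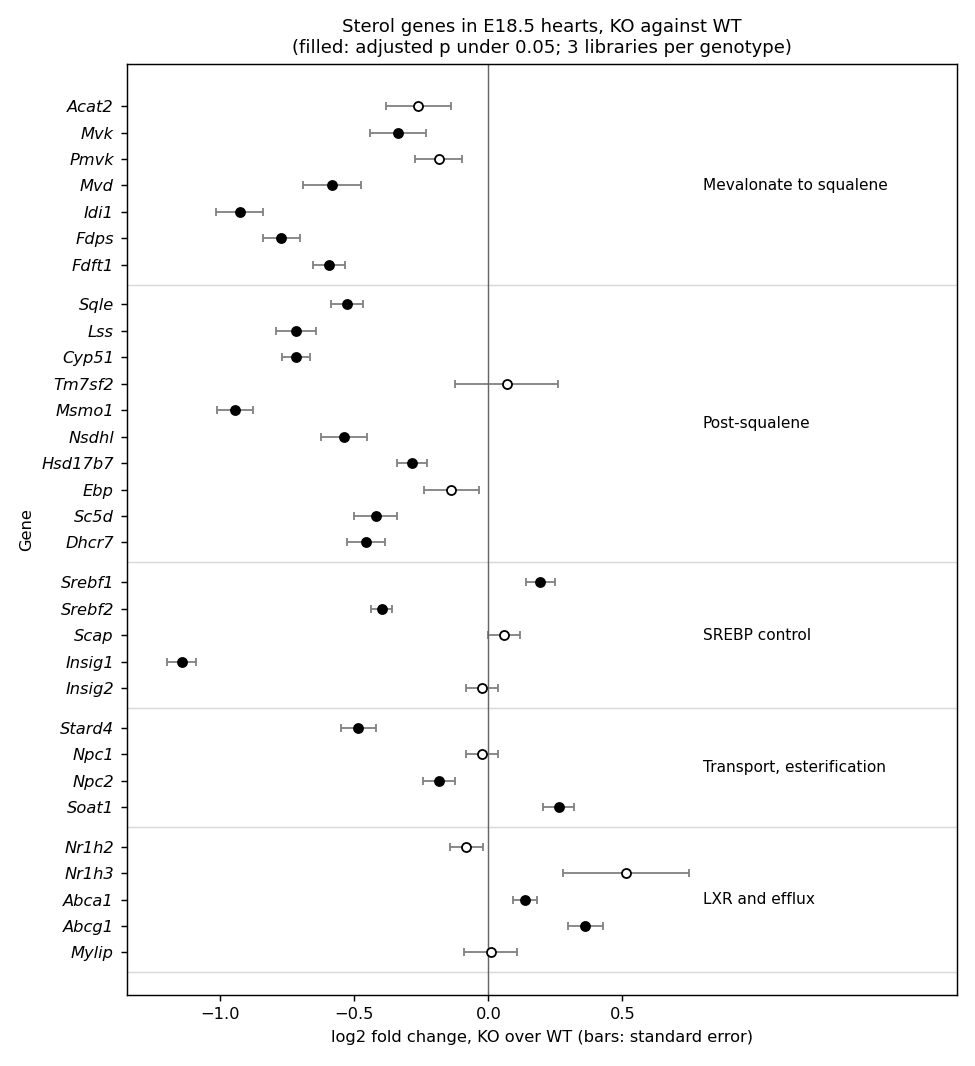
The log2 fold change of KO over WT is plotted on the horizontal axis for the 31 sterol genes, grouped by role on the vertical axis, with points for the fitted values, bars for the standard error and filled points for an adjusted p under 0.05 (3 libraries per genotype). *Insig1* lies farthest to the left at -1.14, 13 of the 17 synthesis enzymes are filled and left of 0, and *Srebf1*, *Soat1*, *Abca1* and *Abcg1* are filled and right of 0.

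In the mevalonate route, 5 of the 7 enzymes fell and none rose. *Idi1*, whose product interconverts the 2 activated isoprene units, was at 20.7, 19.7 and 18.3 CPM in WT and at 10.3, 9.85 and 10.7 CPM in KO libraries. *Fdps*, which joins these units into farnesyl diphosphate, was at 41.4, 40.7 and 38.6 CPM in WT and at 21.1, 23.6 and 26.1 CPM in KO libraries. Every KO library lay below every WT library for both genes, and the KO means were 52.5% and 58.6% of the WT means. The log2 fold changes were -0.93 for *Idi1* (standard error 0.0876, edgeR adjusted p = 4.66e-09) and -0.77 for *Fdps* (standard error 0.0697, edgeR adjusted p = 1.95e-09). *Fdft1* encodes squalene synthase, the first step committed to sterols. Its levels were 38.0, 40.2 and 40.9 CPM in WT and 25.8, 27.3 and 25.8 CPM in KO libraries, a log2 fold change of -0.59 (standard error 0.0615, edgeR adjusted p = 2.45e-08). *Mvd*, the decarboxylase that ends the mevalonate steps, was at 11.4, 11.9 and 10.7 CPM in WT and at 7.37, 8.34 and 7.14 CPM in KO libraries, with a log2 fold change of -0.58 (standard error 0.107, edgeR adjusted p = 1.42e-04). The groups did not overlap for either gene.

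The early kinases and the thiolase had smaller fold changes. *Mvk*, mevalonate kinase, was at 11.8, 11.7 and 11.8 CPM in WT and at 8.74, 8.59 and 10.6 CPM in KO libraries, and its log2 fold change of -0.34 (standard error 0.103, edgeR adjusted p = 0.0145) did not pass without KO a (0.0781), without KO b (0.0706) or with DESeq2 (0.0514). *Pmvk*, the next kinase, had a log2 fold change of -0.19 (edgeR adjusted p = 0.112), and *Acat2*, the cytosolic thiolase that starts the route, one of -0.26 (edgeR adjusted p = 0.106). WT and KO libraries overlapped for both. Without WT a, *Acat2* passed with a log2 fold change of -0.37 (edgeR adjusted p = 0.0288). Some of these values are uncertain because reads may have been shared or split. In the reference transcripts, *Acat2* shares 39.1% of its 50-base words with its neighbour *Acat3*, *Fdft1* shares 26.5% with other genes, mostly the overlapping *Ctsb*, *Fdps* shares 26.2% and *Idi1* shares 25.3%.

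After squalene, 8 of the 10 enzymes fell and none rose. *Msmo1*, a methyl sterol oxidase, changed most, from 39.8, 41.2 and 39.9 CPM in WT to 21.2, 23.0 and 18.8 CPM in KO libraries. *Cyp51*, the lanosterol demethylase, was at 58.2, 58.0 and 56.0 CPM in WT and at 34.4, 35.0 and 35.4 CPM in KO libraries. *Lss*, which closes the sterol ring to lanosterol, was at 24.7, 25.2 and 26.3 CPM in WT and at 15.0, 14.8 and 16.4 CPM in KO libraries. The KO libraries were thus at 52.1%, 60.9% and 60.6% of the WT mean for these 3 genes, with no overlap between the groups. The log2 fold changes were -0.95 for *Msmo1* (standard error 0.0687, edgeR adjusted p = 2.51e-11), -0.72 for *Cyp51* (standard error 0.0531, edgeR adjusted p = 3.57e-11) and -0.72 for *Lss* (standard error 0.0756, edgeR adjusted p = 3.35e-08). *Sqle*, squalene epoxidase, is a rate-limiting enzyme of the route. It was at 42.9, 39.5 and 42.0 CPM in WT and at 28.2, 28.4 and 29.4 CPM in KO libraries, a log2 fold change of -0.53 (standard error 0.0599, edgeR adjusted p = 1.28e-07).

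*Nsdhl*, *Hsd17b7* and *Sc5d* act on the methyl groups and double bonds of the ring, and *Dhcr7* completes one branch of the route to cholesterol. *Nsdhl* was at 19.1, 21.0 and 21.1 CPM in WT and at 12.8, 13.7 and 15.5 CPM in KO libraries (log2 fold change -0.54, edgeR adjusted p = 2.47e-05). *Dhcr7* was at 26.8, 26.9 and 26.1 CPM in WT and at 20.3, 18.9 and 18.9 CPM in KO libraries (log2 fold change -0.46, edgeR adjusted p = 1.37e-05). Both genes were lower in each KO library than in each WT library. *Sc5d* was at 23.5, 20.5 and 21.0 CPM in WT and at 15.3, 17.0 and 16.4 CPM in KO libraries (log2 fold change -0.42, edgeR adjusted p = 2.42e-04). *Hsd17b7* was at 43.4, 46.1 and 45.0 CPM in WT and at 36.1, 37.0 and 37.4 CPM in KO libraries (log2 fold change -0.28, edgeR adjusted p = 2.89e-04). Their groups did not overlap either. *Ebp*, the sterol isomerase, lies on the X chromosome like *Nsdhl* and had a log2 fold change of -0.14 (standard error 0.102, edgeR adjusted p = 0.324). *Tm7sf2*, a sterol reductase, was the lowest synthesis enzyme at 2.46 to 3.76 CPM, and its log2 fold change of 0.068 (standard error 0.191, edgeR adjusted p = 0.823) turned to -0.099 without KO a.

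Added over the 17 enzymes, the level was 444 CPM in each WT library and 296, 306 and 304 CPM in KO a, b and c. The mevalonate steps summed to 150 to 151 CPM in WT and 97.9 to 104 CPM in KO libraries, and the post-squalene steps to 293 to 294 and 198 to 203 CPM. The spread within each genotype was thus smaller than the distance between genotypes in both stretches. Per kilobase of exon, the WT mean ranged from 0.677 for *Tm7sf2* to 13.0 for *Cyp51*, with *Pmvk* at 11.0, *Fdps* at 9.56 and *Fdft1* at 9.39. In KO hearts the same measure gave 0.703 for *Tm7sf2*, 7.91 for *Cyp51*, 9.63 for *Pmvk*, 5.60 for *Fdps* and 6.22 for *Fdft1*. By this measure *Pmvk*, which did not pass the test, stood above *Cyp51*, whereas their KO means were 16.5 and 34.9 CPM.

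**Figure D2:**
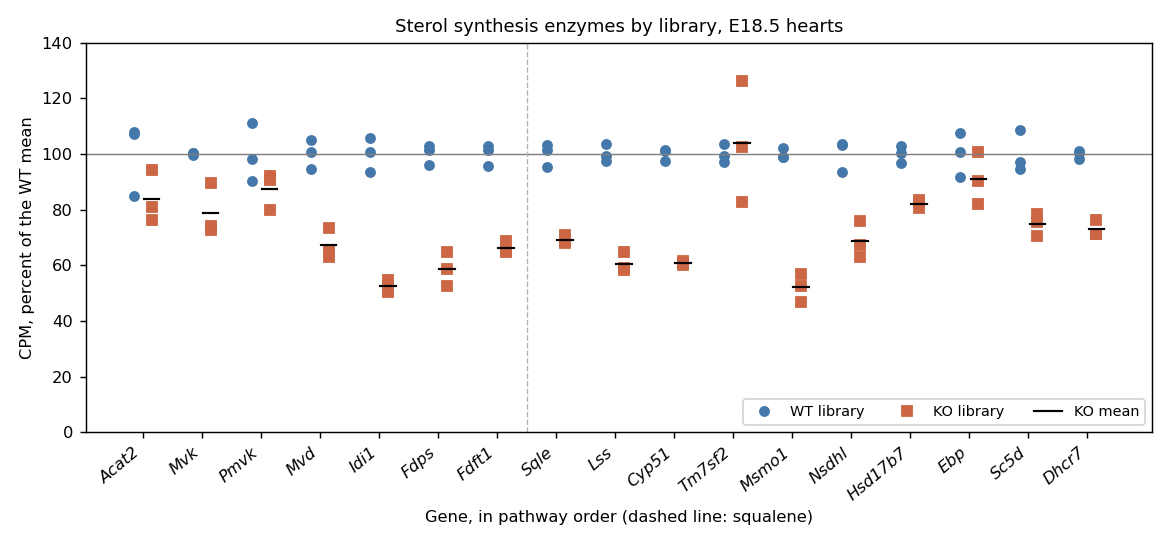
The CPM of each library is plotted as a percent of the WT mean for the 17 synthesis enzymes in pathway order, with circles for WT libraries, squares for KO libraries and a line for the KO mean. The squares lie below all circles for 13 enzymes, with KO means from 52.1% of the WT mean for *Msmo1* to 82.2% for *Hsd17b7*, and they overlap the circles for *Acat2*, *Pmvk*, *Tm7sf2* and *Ebp*.

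Within SREBP control the 5 genes diverged, with 2 lower, 1 higher and 2 that did not pass the test. *Insig1*, itself a target of SREBP, had the largest change of the 31 genes. It was at 64.2, 64.1 and 63.9 CPM in WT and at 29.2, 29.6 and 28.2 CPM in KO libraries, so that every KO library was below every WT library, with a log2 fold change of -1.14 (standard error 0.0537, edgeR adjusted p = 2.11e-15), or 2.21-fold lower. *Insig2*, the second INSIG gene, was at 38.4, 36.1 and 35.8 CPM in WT and at 36.3, 37.7 and 34.5 CPM in KO libraries, with a log2 fold change of -0.025 (standard error 0.0596, edgeR adjusted p = 0.79). Per kilobase of exon, *Insig1* was 1.88, 1.99 and 2.00 times *Insig2* in WT and 0.902, 0.880 and 0.919 times in KO libraries. The order of the 2 genes was thus inverted in each KO library.

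*Srebf2* was at 170, 159 and 163 CPM in WT and at 128, 120 and 125 CPM in KO libraries, a log2 fold change of -0.40 (standard error 0.0388, edgeR adjusted p = 8.86e-09). *Srebf1*, whose products favour fatty acid synthesis genes, went the other way, from 54.0, 56.6 and 49.5 CPM in WT to 60.7, 60.3 and 62.6 CPM in KO libraries, with a log2 fold change of 0.19 (standard error 0.0530, edgeR adjusted p = 0.00669). Neither gene had overlapping groups. The ratio of *Srebf2* to *Srebf1* per kilobase of exon was 2.46, 2.19 and 2.58 in WT and 1.66, 1.56 and 1.56 in KO libraries. *Scap* had a log2 fold change of 0.059 (standard error 0.0601, edgeR adjusted p = 0.494) with overlapping groups.

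Promoters of the genes were read from RefSeq (GRCm38.p6), from 250 bases before to 50 bases after each annotated start, and were held for 26 of the 32 genes. The motif CCAAT, read on both strands, is bound by NF-Y, the trimeric factor that contains NFYa and acts beside SREBP at many sterol genes. The stretches below show it in capitals (ATTGG is its other strand) for the member with the largest fall in each of the mevalonate, post-squalene and SREBP control groups that holds the motif before both the RefSeq and the GENCODE start, for *Srebf2*, and for *Abca1* as an efflux gene. They lie at chr8:122443423-122443672 (minus strand) for *Mvd*, chr10:76531355-76531587 (plus strand) for *Lss*, chr5:28071162-28071362 (plus strand) for *Insig1*, chr15:82147019-82147180 (plus strand) for *Srebf2* and chr4:53159896-53160145 (minus strand) for *Abca1*, all upstream of the first exon, and are written in the direction of the gene.
Mvd: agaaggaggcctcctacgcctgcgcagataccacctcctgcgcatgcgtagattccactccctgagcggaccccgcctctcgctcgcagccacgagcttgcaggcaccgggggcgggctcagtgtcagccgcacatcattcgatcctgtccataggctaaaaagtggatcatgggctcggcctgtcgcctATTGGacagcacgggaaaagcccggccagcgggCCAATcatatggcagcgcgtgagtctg
Lss: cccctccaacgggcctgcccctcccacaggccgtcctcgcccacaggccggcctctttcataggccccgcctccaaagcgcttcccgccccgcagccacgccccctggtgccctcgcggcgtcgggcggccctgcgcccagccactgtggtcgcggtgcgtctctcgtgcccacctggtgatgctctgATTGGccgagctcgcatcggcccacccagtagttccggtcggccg
Insig1: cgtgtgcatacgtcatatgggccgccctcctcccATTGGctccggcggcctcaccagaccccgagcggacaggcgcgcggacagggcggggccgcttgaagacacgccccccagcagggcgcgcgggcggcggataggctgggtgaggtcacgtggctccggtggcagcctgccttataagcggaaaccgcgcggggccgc
Srebf2: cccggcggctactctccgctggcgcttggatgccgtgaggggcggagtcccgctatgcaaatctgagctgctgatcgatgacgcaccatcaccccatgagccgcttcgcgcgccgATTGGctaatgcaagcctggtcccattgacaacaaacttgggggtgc
Abca1: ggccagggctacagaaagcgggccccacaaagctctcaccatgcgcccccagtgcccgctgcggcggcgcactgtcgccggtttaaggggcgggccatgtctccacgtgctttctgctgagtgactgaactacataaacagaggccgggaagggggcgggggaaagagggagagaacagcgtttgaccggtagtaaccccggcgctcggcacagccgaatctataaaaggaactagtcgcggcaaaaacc

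CCAAT occurred in the RefSeq promoter of each of the 13 lowered genes for which one was held, with 1 to 5 matches per gene. From 150 bases before the RefSeq start up to that start, 12 of the 13 had a match. By the GENCODE start, every match of *Idi1*, *Msmo1*, *Cyp51* and *Dhcr7* lay inside the gene. CCAAT occurred in 5 of 9 genes that did not pass the test and in 2 of 3 that rose, *Srebf1* and *Soat1*. The match of *Tm7sf2*, which did not pass, also lay inside its gene by the GENCODE start. *Abca1*, *Acat2*, *Scap*, *Nr1h2* and *Nr1h3* held none. The lowered genes *Fdps*, *Fdft1*, *Sqle* and *Stard4* had no promoter to read. Of all 27025 genes with a promoter, 41.1% held CCAAT, and of the 10320 such genes that were tested here, 42.3% did. The share was 46% among all 1608 lowered genes with a promoter and 37.7% among the 1518 that rose. GGGCGG, a motif of Sp factors, occurred in 13 of the 13 lowered genes, in 3 of 3 that rose, in 6 of 9 that did not pass the test and in 67.6% of the tested genes, and no match of it overlapped a CCAAT match. Where a gene had several promoters a match in any of them was counted, which for the lowered genes concerned only *Dhcr7*. Its promoters that begin at chr7:143822917 and chr7:143823149 held no CCAAT, and its matches lay in the promoter that begins at chr7:143829964.

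Of the stricter motifs, the sterol regulatory element TCACNCCAC occurred only in the promoter of *Hmgcs1* among the 26 genes (1.44% of all genes with a promoter). The SREBP E-box TCACGTGA (1.12% of all) and the LXR direct repeat, with GGTCA repeated after 5 other bases (0.0851% of all), occurred in 0 of the 26. These counts describe letters in a short window.

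**Figure D3:**
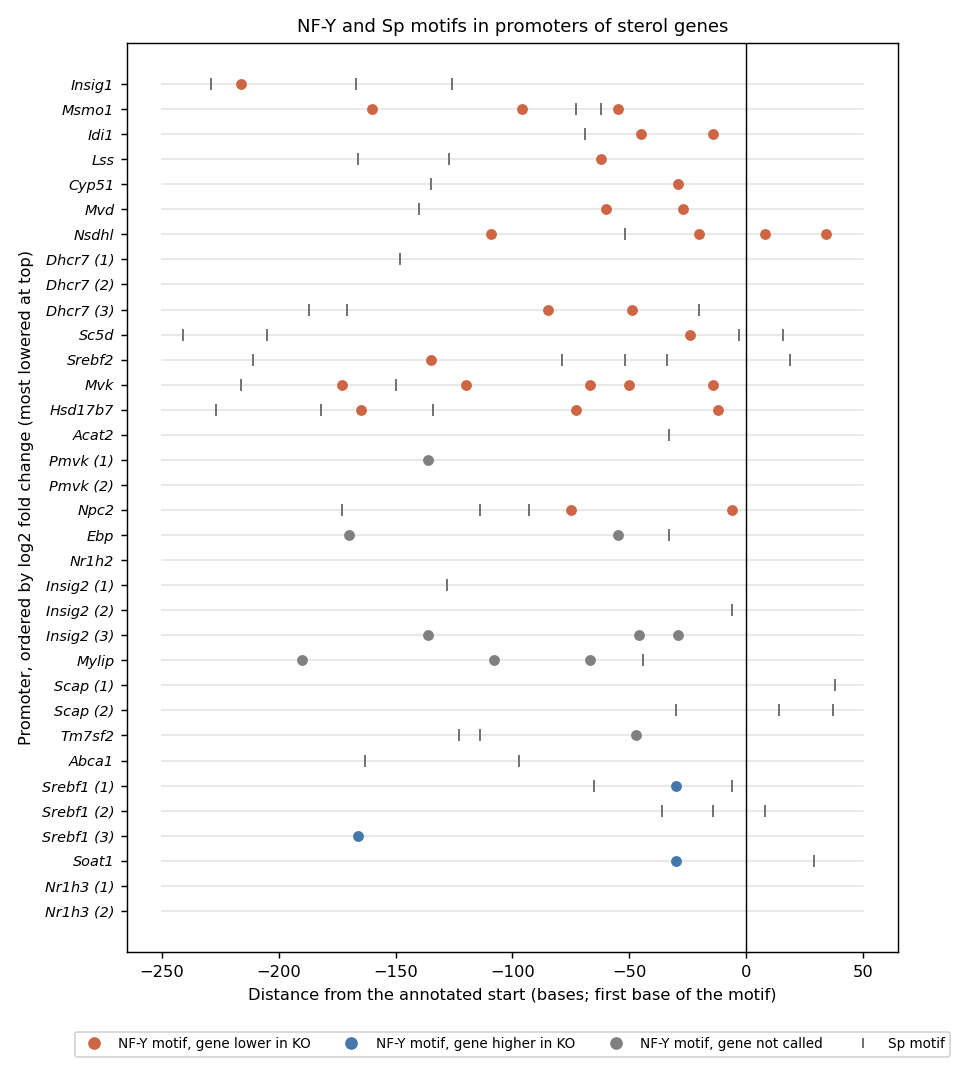
Each line is one promoter of a tested sterol gene, ordered from the most lowered gene at the top, with circles for NF-Y motifs and ticks for Sp motifs at their distance in bases from the annotated start (numbers in parentheses mark several promoters of one gene). The 13 lowered genes with a promoter all carry at least 1 circle, *Dhcr7* not on each of its lines, as do 5 of 9 genes not called and 2 of 3 that rose. *Abca1*, *Acat2*, *Scap*, *Nr1h2* and *Nr1h3* carry none.

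Sterol transport genes were split. *Stard4*, a carrier of free cholesterol between membranes and a known SREBP-2 target, was at 32.5, 33.7 and 31.7 CPM in WT and at 23.2, 22.4 and 24.4 CPM in KO libraries, with no overlap and a log2 fold change of -0.48 (standard error 0.0652, edgeR adjusted p = 2.09e-06). *Npc1*, the lysosomal membrane protein that exports cholesterol taken up with lipoproteins, had a log2 fold change of -0.025 (standard error 0.0589, edgeR adjusted p = 0.789). Its partner *Npc2* was at 62.2, 56.0 and 58.1 CPM in WT and at 49.8, 57.7 and 48.0 CPM in KO libraries. The groups overlapped for *Npc2*, and its log2 fold change of -0.18 (standard error 0.0608, edgeR adjusted p = 0.0227) did not pass without WT a (0.109), KO a (0.122) or KO c (0.168), nor with DESeq2 (0.055). *Soat1*, which esterifies cholesterol for storage, rose from 42.6, 37.7 and 41.4 CPM in WT to 50.7, 47.0 and 47.9 CPM in KO libraries, with no overlap and a log2 fold change of 0.26 (standard error 0.0580, edgeR adjusted p = 0.00103).

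Of the 5 LXR and efflux genes, 2 rose and none fell. *Abcg1*, a transporter that passes cholesterol to high-density lipoprotein, was at 22.4, 22.0 and 23.1 CPM in WT and at 29.1, 28.6 and 28.8 CPM in KO libraries. *Abca1*, which loads apolipoproteins with cholesterol, was at 71.0, 76.2 and 70.4 CPM in WT and at 79.3, 79.9 and 80.3 CPM in KO libraries. Each KO library lay above each WT library for both transporters. The log2 fold change was 0.36 for *Abcg1* (standard error 0.0658, edgeR adjusted p = 1.35e-04) and 0.14 for *Abca1* (standard error 0.0456, edgeR adjusted p = 0.0238). The *Abca1* result did not pass without WT a (0.0832), KO a (0.0587), KO b (0.0652) or KO c (0.0758), nor with DESeq2 (0.0619).

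*Nr1h2*, which encodes LXR-beta and is the widely expressed form, had a log2 fold change of -0.083 (standard error 0.0613, edgeR adjusted p = 0.327). Its WT and KO libraries did not overlap. *Nr1h3*, which encodes LXR-alpha, was the lowest of the 31 genes in WT hearts, at 1.68, 1.63 and 2.83 CPM in WT and 2.23, 2.90 and 3.49 CPM in KO libraries with overlapping groups, and its log2 fold change of 0.51 (standard error 0.236, edgeR adjusted p = 0.101) passed only without WT c (0.79, edgeR adjusted p = 0.0119). *Mylip*, an LXR target whose product marks lipoprotein receptors for degradation, had a log2 fold change of 0.0082 (standard error 0.0991, edgeR adjusted p = 0.96). Macrophages are rich in *Nr1h3*, *Abca1* and *Abcg1*. Of 11 tested macrophage and leukocyte markers, 2 were lower (*C1qa* and *C1qc*) and 0 higher in KO hearts, and their summed level of 68.9 to 72.9 CPM in WT overlapped with 66.4 to 75.3 CPM in KO libraries.

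**Figure D4:**
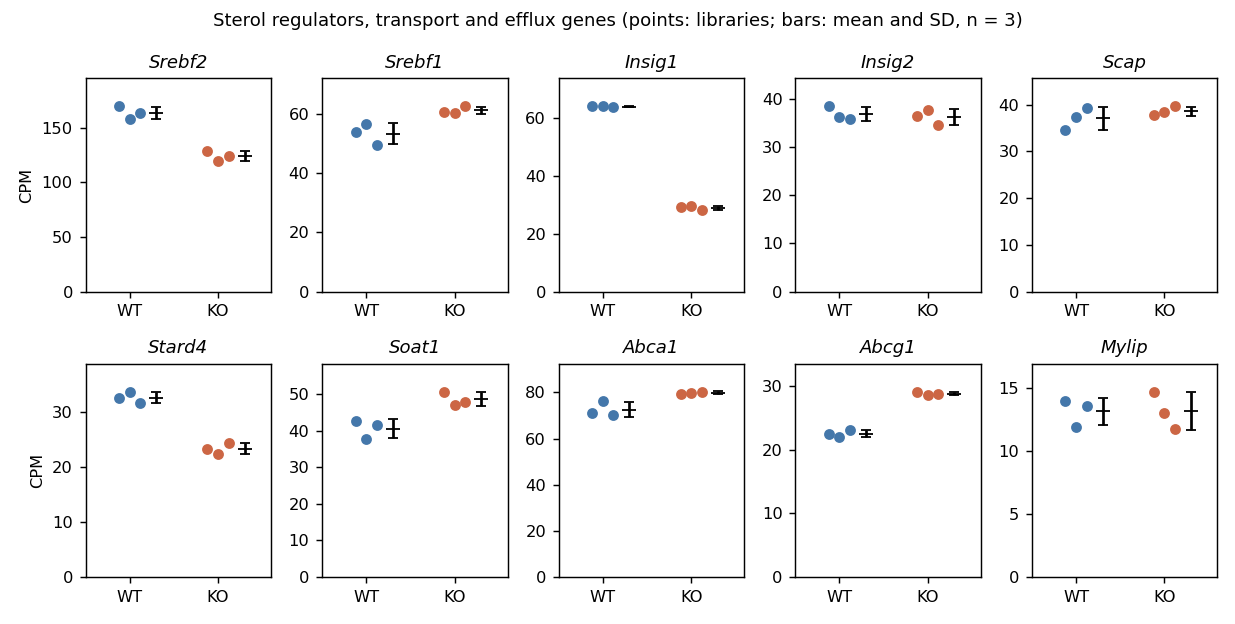
CPM is plotted on the vertical axis for 10 genes of sterol control, transport and efflux in WT and KO libraries, with a point per library and a bar for the mean and SD (n = 3). *Insig1*, *Srebf2* and *Stard4* drop in KO hearts, *Srebf1*, *Soat1*, *Abca1* and *Abcg1* rise, and the points of *Insig2*, *Scap* and *Mylip* overlap.

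Another 48 genes around the pathway were listed, of which 46 were in the table. By edgeR's quasi-likelihood test, 11 of them fell and 9 rose, with a median log2 fold change of 0.011, beside 15.7% of all tested genes that were lower and 14.6% that were higher. The groups that follow are small, and their counts are descriptions to be read against these shares. The 9 that rose became 4 without WT a, 4 without WT b, 5 without KO a, 3 without KO b, 4 without KO c and 2 with DESeq2. Of 7 genes that assist the synthesis enzymes, 4 fell and none rose. They were named after their values were seen and encode electron carriers, with log2 fold changes of -0.26 for *Cyb5r3*, -0.25 for *Cyb5a*, -0.20 for *Por* and -0.11 for *Cyb5b*, of which *Cyb5b* (edgeR adjusted p = 0.0304) did not pass without WT b (0.0926), KO a (0.0975), KO b (0.0701) or KO c (0.0762), nor with DESeq2 (0.0781). Of 8 genes of the branches to isoprenoids that are not sterols, none fell and 2 rose. Of 8 genes of SREBP processing and sterol-regulated degradation, 1 fell and 3 rose, of 6 uptake and lysosome genes 2 fell and 1 rose, of 8 sterol transfer genes 2 fell and 1 rose, of 4 oxysterol and ester genes 1 fell and 1 rose, and of 5 other LXR targets 1 fell and 1 rose.

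Of these genes, *Ch25h*, which makes 25-hydroxycholesterol, fell from 2.26, 2.70 and 2.89 CPM in WT to 1.22, 1.07 and 1.07 CPM in KO libraries (log2 fold change -1.21, edgeR adjusted p = 3.17e-04). *Scarb2*, a lysosomal membrane protein, fell from 125, 130 and 136 CPM to 87.5, 80.3 and 80.6 CPM (log2 fold change -0.65). Among those that rose, *Abcg4*, a sterol transporter related to *Abcg1*, went from 1.45, 1.79 and 1.84 CPM to 2.91, 2.15 and 2.68 CPM (log2 fold change 0.62, edgeR adjusted p = 0.0356). The *Abcg4* result did not pass without WT a (0.12), WT b (0.0661), KO a (0.142) or KO c (0.0973), nor with DESeq2 (0.119). None of these 3 genes had overlapping groups. Of the 5 other LXR targets, *Abcg4* was the 1 that rose and *Arl4c* the 1 that fell. The mean of *Arl4c* was 41.1 CPM in WT and 31.3 CPM in KO libraries (log2 fold change -0.40, edgeR adjusted p = 1.64e-05).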

How the data were processed

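RNA-seq was carried out on heart tissue of WT and *Pkm1*-KO embryos, with 3 libraries per genotype. Total RNA was depleted of ribosomal RNA (KAPA RiboErase and RNA HyperPrep), and paired ends were sequenced. The submitters' processing notes name cutadapt 1.18, HISAT2, StringTie and mm10, and the program that counted reads per gene and its strand setting are not given in the sources used here. Per library, the authors deposited unnormalized counts for each gene symbol, which were used as they stand. The same table holds their own fold changes, average expression, p-values and false discovery rates, which were not used.

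The analysis used edgeR 4.0.16 under R 4.3.3. After filterByExpr (13804 of 13809 genes) and TMM scaling, genotypes were compared by the quasi-likelihood test without further terms, and p-values were adjusted by Benjamini-Hochberg across every gene in the fit. Standard errors were derived from the log2 fold change and its F statistic. No library pair within a genotype agreed within sampling noise (chi-square per degree of freedom 1.56 to 3.76 over genes), with WT c farthest from the others, so all 6 were counted. The labels do not tie replicates to separate embryos, whereas the study calls them biological. A count of 3 equals 0.153 to 0.197 CPM at these depths, and covers counting error only. Gene models were from GENCODE M21 (GRCm38). Exon length was that of all annotated exons of a gene merged, which need not be the length of the expressed transcript. The members, gene lists and motifs were chosen with earlier results of these data known. Every member was named, with values in each library for those past an adjusted p of 0.05 that changed by at least 1.2-fold and the 3 of smallest adjusted p in each role group. Of the further genes, the 2 with the largest change in each direction were to be named, and 1 of them is not reported here. Alternatives were RLE scaling, TMM without *Rn45s*, other filters on low counts, DESeq2 1.42.0, voom of limma 3.58.1, edgeR's exact test, genes on X and Y left out and each library left out. The quasi-likelihood, voom, exact test and DESeq2 fits were tested on simulated data with all libraries. The other scalings, filters and subsets were not. Figures were drawn with matplotlib 3.10.9.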

Additional observations from a re-analysis of the deposited data

How the results depend on the processing

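The number of lowered sterol genes was 15 to 17 and of raised ones 3 to 5 in the 14 alternatives, against 17 and 4, and 18 of the 21 genes past the threshold kept direction and call in each alternative that gave a value. *Mvk*, *Npc2* and *Abca1* kept their direction and lost the call in some. Without the genes of the sex chromosomes, *Nsdhl* and *Ebp* gave no value. Among the 46 further genes, 9 rose, which became 2 with DESeq2 and 3 to 7 when a single library was dropped, and the cause was not tested. *Abcg4*, which rose, and *Cyb5b*, which fell, lost their call in some alternatives, which were applied to single genes of this list after seeing the data. The median log2 fold change of the LXR and efflux genes was 0.11 to 0.17 with 1 library left out, against 0.14. Direction turned, without a call, for *Tm7sf2* (-0.0992 to 0.196 with 1 library left out), *Insig2* (-0.0534 to 0.0089), *Npc1* (-0.0756 to 0.0452) and *Mylip* (-0.0845 to 0.0884), and the cause was not tested. Scaling with RLE or without *Rn45s* changed no direction among the 31 genes. No paired analysis was possible because replicate numbers are absent from the column names. Depth limits *Nr1h3* and *Tm7sf2*, the lowest of the 31 genes.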
